A study of Mus musculus with 5 samples.

Results

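The genes described here are 39 mouse genes of antioxidant defence: the transcription factor NRF2 and its inhibitor KEAP1, genes that NRF2 is known to switch on, the enzymes that make, recycle and use glutathione, the peroxiredoxins and thioredoxins, the superoxide dismutases and catalase. They were chosen by name with earlier results of these data known, so the set is not independent evidence of its direction. They were matched to the deposited Ensembl gene IDs through GENCODE M21 (GRCm38), and all 39 were found among the 49315 genes of each table. All 39 also passed the filter on low counts, which left 14221 genes tested. Poly-A enriched RNA from 10 mg pieces of frozen mouse heart had been sequenced, giving 3 libraries from mice kept on a high-fat, high-sucrose diet (HFHS) and 2 libraries from mice kept on standard chow, each diet lasting 18 weeks. Mice of both groups had been injected once, by vein, with iron dextran, an iron and sugar polymer complex, and their hearts had been flushed with PBS and collected 48 h later. There is no library without iron in the comparison, so the values set the diets against each other in iron-treated hearts and do not measure what iron did. The sources used here do not give the strain, age, sex or iron dose. The labels do not say that each library came from a separate mouse, so the p-values measure the spread between these libraries only.

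NRF2 (gene Nfe2l2) is held in the cytoplasm by KEAP1, which hands it to a ubiquitin ligase for destruction. Oxidants and reactive chemicals modify KEAP1, and NRF2 then reaches the nucleus and, with a small MAF protein, binds antioxidant response elements near genes for glutathione synthesis, detoxification and NADPH supply. Heart muscle makes hydrogen peroxide mainly in its mitochondria. Superoxide dismutases convert superoxide into hydrogen peroxide, and catalase, peroxiredoxins and glutathione-dependent enzymes remove it. For the peroxiredoxins and the glutathione-dependent enzymes, NADPH is the final source of electrons.

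The antioxidant response element has the core TGACNNNGC, where N is any base. It was searched on both strands in the RefSeq promoter windows of the GRCm38.p6 build, which run from 250 bases before to 50 bases after each gene's annotated RefSeq start. A window was available for 34 of the 39 genes and not for Gclc, Gsr, Gsta4, Prdx6 and Sod3. The core occurred in 10 of these 34 windows (29.4%), against 3781 of the 27025 windows of all genes (14%), and a match of these letters is a description and not a binding site. In 8 of the 10 genes the core lay before the start, and those stretches are shown because they are the candidate NRF2 sequences of genes whose values follow. Each is written 5′ to 3′ on the strand of its gene, with the core in capitals, read either forward or as its reverse complement, GCNNNGTCA.
Nfe2l2: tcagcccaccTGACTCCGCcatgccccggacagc
Gclm: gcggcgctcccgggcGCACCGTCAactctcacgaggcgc
Gsta3: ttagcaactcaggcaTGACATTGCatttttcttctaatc
Gstm5: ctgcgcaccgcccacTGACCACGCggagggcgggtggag
Mgst1: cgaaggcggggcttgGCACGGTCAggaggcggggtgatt
G6pdx: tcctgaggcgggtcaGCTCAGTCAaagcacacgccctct
Prdx1: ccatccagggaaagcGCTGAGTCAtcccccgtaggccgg
Sod1: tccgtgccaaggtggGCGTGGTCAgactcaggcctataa
These stretches lie at chr2:75704880-75704913 on the minus strand for Nfe2l2, chr3:122245408-122245446 on the plus strand for Gclm and chr1:21240449-21240487 on the plus strand for Gsta3. Those of Gstm5 and Mgst1 lie at chr3:107895797-107895835 and chr6:138140456-138140494, both on the plus strand. The stretch of G6pdx lies at chrX:74428914-74428952 on the minus strand, and those of Prdx1 and Sod1 lie at chr4:116685451-116685489 and chr16:90220691-90220729 on the plus strand. Counted from the start site, the core begins at position -240 in Nfe2l2, -134 in Gclm, -121 in Gsta3, -42 in Gstm5, -56 in Mgst1, -57 in G6pdx, -133 in Prdx1 and -56 in Sod1. In Pgd and Srxn1 it lies after the start. The AP-1 motif (TGACTCA, or TGAGTCA on the other strand) occurred in 6 of the 34 windows and in 5.95% of all windows, and among the cores only that of Prdx1 overlapped an AP-1 motif.

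Levels are given as CPM, the deposited counts scaled to library sizes that were adjusted by the TMM method. Differences are log2 fold changes of HFHS minus chow from edgeR's quasi-likelihood test over all 14221 genes, and a gene is said to have risen or fallen where the Benjamini-Hochberg adjusted p was under 0.05. Total counts per library were 14362766 to 16546113 in the HFHS group and 17331356 to 17774735 in the chow group. The 12 cardiomyocyte markers summed to between 81675 and 83817 CPM of the total counts in HFHS libraries and to 75146 and 83273 CPM in chow libraries, while no fat cell or lung marker had more than 4 counts in any library. Of these 12 markers 5 rose and 5 fell. Markers of several other cell types were lower in HFHS libraries. All 13 macrophage markers fell, with summed levels of 214 to 249.6 CPM in HFHS libraries and of 525 and 618 CPM in chow libraries. All 9 red cell markers fell (270.0 to 550.4 CPM in HFHS libraries, 1532 and 1751 CPM in chow libraries), as did all 9 fibroblast markers (1720.2 to 1736 CPM in HFHS libraries, 2463 and 2535 CPM in chow libraries). Of the 9 endothelial markers 6 fell and 1 rose, with summed levels of 1237 to 1267 CPM in HFHS libraries and of 2017 and 2213 CPM in chow libraries. Of the 8 pericyte and smooth muscle markers 3 fell and 1 rose (1261 to 1324 CPM in HFHS libraries, 1443 and 1444 CPM in chow libraries), and 2 of the 3 lymphocyte and neutrophil markers tested fell. No liver or skeletal muscle marker passed the test. Of the sex markers, Xist had 1 to 5 counts per library and the Y-linked Ddx3y had 52.5 to 84.5 CPM, as in male tissue. Of the 4 sex markers tested 3 rose. Across all tested genes 18.7% fell and 19.4% rose. In a fit described below, with exon length and GC offsets, 1 sex marker rose and 7 of the 9 fibroblast markers fell. All 13 macrophage and all 9 red cell markers still fell there. With transcript length and GC offsets 5 fibroblast, 12 macrophage and 9 red cell markers fell. With DESeq2 these counts were 6, 12 and 8. In whole tissue, fewer cells of a type and less RNA per cell cannot be told apart, and the part of these cells in the results on the antioxidant genes was not tested.

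Relative to chow-fed mice, hearts of HFHS-fed mice had lower mRNA levels of most peroxiredoxins, cytosolic thioredoxin, most glutathione transferases and Cu/Zn superoxide dismutase (Sod1). Levels of catalase, mitochondrial superoxide dismutase (Sod2) and aldehyde oxidase (Aox1) were higher. Part of this was lost in fits, described below, that take out a trend on gene length and GC content. With exon length and GC offsets 3 of the 11 transferases fell and 2 rose, and Sod1 lost its call (adjusted p = 0.32). Aox1 lost its call with transcript length and GC offsets (adjusted p = 0.0979). The calls of the peroxiredoxins, thioredoxin, catalase and Sod2 held with either offset. Among the 39 genes 20 fell, 3 rose and 16 did not pass the test, where 18.7% of all tested genes fell and 19.4% rose, 38.1% in all. The counts by class given below stand beside the same shares. The HFHS and chow libraries did not overlap for 29 of the 39 genes, 24 of them lower and 5 higher in HFHS, beside 58.5% of all tested genes in either direction. The median log2 fold change of the 39 genes was -0.295, beside -0.0117 for all tested genes. Leaving out chow replicate 2 gave a median of -0.155, and leaving out chow replicate 1 gave -0.37. The summed level of the 39 genes was 3245 ± 35.3 CPM in HFHS libraries (SD, n = 3) and 3702 ± 157 CPM in chow libraries (SD, n = 2).

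**Figure D1:**
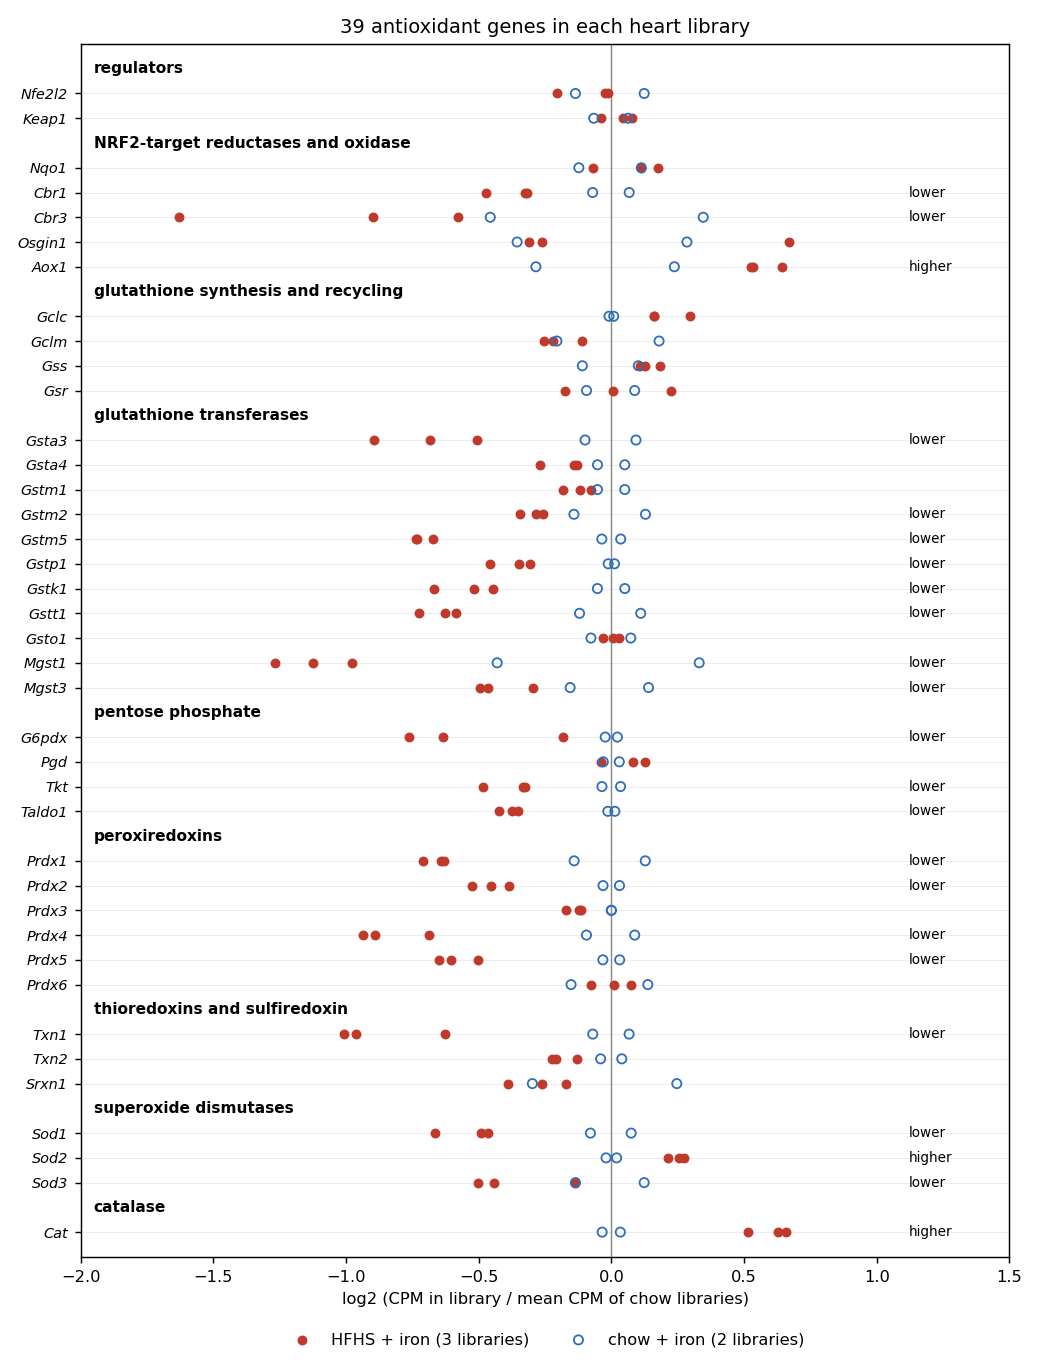
Level of each of the 39 genes in each library, as the log2 ratio of its CPM to the mean CPM of the chow libraries (x axis), grouped by class, with filled points for the 3 HFHS libraries and open points for the 2 chow libraries. The words at the right mark the 20 genes that fell and the 3 that rose, and Cat, Sod2 and Aox1 are the ones with all 3 HFHS libraries to the right of both chow libraries among those marked.

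The fold changes followed the exon length of the deposited tables. The median exon length, as summed in the deposited tables, was 2613 bases for the 39 genes and 4009 bases for all tested genes. Of the 30 genes shorter than that 4009-base median, 18 fell and 2 rose, where 29.1% of all shorter genes fell and 8.4% rose. Of the other 9, which were longer, 2 fell and 1 rose, where 8.35% of all longer genes fell and 30.4% rose. The median log2 fold change was -0.369 for the 30 shorter antioxidant genes and -0.206 for all shorter genes, and it was 0.00 for the 9 longer ones and 0.155 for all longer genes. Across genes, which are not independent replicates, Spearman's rho between exon length and fold change was 0.458 for the 39 genes and 0.43 for all tested genes. With the median transcript length of GENCODE M21 in its place, it was 0.00354 for the 39 genes and 0.253 for all tested genes.

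Because of this trend, each call was set beside fits in which a smooth trend on length and GC content was taken out of every library. With exon length and GC offsets 10 of the 39 genes fell and 7 rose, with a median log2 fold change of -0.105, beside 14.9% and 15.9% of all tested genes. With transcript length and GC offsets, a choice made after seeing the data, 15 fell and 3 rose, with a median of -0.193, beside 16.6% and 20% of all tested genes. There were 9 genes that fell in all 3 fits, namely Prdx1, Prdx2, Prdx4, Prdx5, Txn1, Gsta3, Gstm5, Mgst1 and Tkt, and 2 that rose in all 3, namely Cat and Sod2. The source of the length trend was not tested. With DESeq2, calls were lost for Cbr1, Cbr3, G6pdx and Sod3 (adjusted p = 0.0578, 0.0971, 0.108 and 0.0911).

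**Figure D2:**
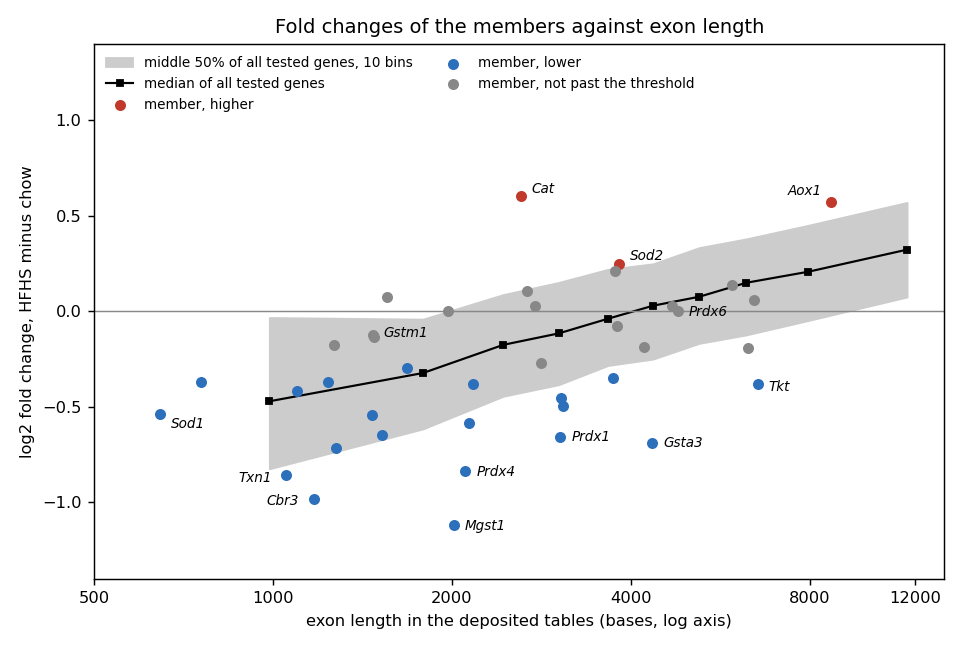
Log2 fold change (HFHS minus chow, y axis) against exon length in the deposited tables (bases, log axis) for the 39 genes, with the median and middle 50% of all tested genes in 10 bins of length. The bin medians run between -0.47 in the shortest bin and 0.32 in the longest. Mgst1, Prdx4, Prdx1, Gsta3 and Tkt are among the genes under the band, and Cat is among those above it.

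The 2 regulators did not pass the test. Nfe2l2, which encodes NRF2, had 61.5, 70.2 and 69.6 CPM in the HFHS libraries, against 64.4 and 77.1 CPM in the chow libraries. Keap1, its inhibitor, had 37.3, 40.6 and 39.6 CPM in the HFHS libraries, against 40.1 and 36.7 CPM in the chow libraries. The groups overlapped for both genes, with log2 fold changes of -0.08 ± 0.09 for Nfe2l2 (SE, adjusted p = 0.551) and 0.03 ± 0.09 for Keap1 (SE, adjusted p = 0.831). NRF2 is controlled mainly through its protein, which these data do not measure.

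The reductases and oxidase of the NRF2 programme did not move together: Aox1 rose, Cbr1 and Cbr3 fell, and Nqo1 and Osgin1 did not pass the test. Nqo1, a quinone reductase that is a classic NRF2 target, had 58.0, 65.7 and 68.7 CPM in the HFHS libraries, against 55.9 and 65.8 CPM in the chow libraries. These ranges overlapped (log2 fold change 0.08, adjusted p = 0.572), and with exon length and GC offsets the gene passed as higher (0.43, adjusted p = 0.00483). Aox1, an aldehyde oxidase, had 56.2, 51.9 and 52.1 CPM in the HFHS libraries, against 29.6 and 42.4 CPM in the chow libraries. Every HFHS library was above both chow libraries, a 1.48-fold higher level (log2 0.57 ± 0.12, SE, adjusted p = 0.00219). The log2 size depended on the chow libraries, being 0.33 with chow replicate 1 left out and 0.85 with chow replicate 2 left out, and the call was lost with transcript length and GC offsets (0.26, adjusted p = 0.0979).

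The carbonyl reductases Cbr1 and Cbr3, which reduce ketones and quinones with NADPH, were both lower. Cbr1 had 16.6, 16.7 and 15.0 CPM in the HFHS libraries, against 21.8 and 19.8 CPM in the chow libraries, a 1.29-fold lower level (adjusted p = 0.0144). Its groups did not overlap, but its adjusted p was 0.112 without chow replicate 1, 0.944 with exon length and GC offsets and 0.0576 with transcript length and GC offsets. Cbr3 was scarce, with 0.937, 1.94 and 1.55 CPM in the HFHS libraries and 3.68 and 2.11 CPM in the chow libraries, from 15 to 68 counts per library. Its adjusted p was 0.0393 with all libraries, 0.143 without HFHS replicate 1, 0.0706 without HFHS replicate 3 and 0.398 without chow replicate 1, and it was 0.208 and 0.0644 with the exon length and transcript length offsets. Osgin1, an oxidative stress induced growth inhibitor, was as scarce (21 to 44 counts) and overlapped between groups (adjusted p = 0.843).

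None of the 4 genes of glutathione synthesis and recycling passed the test. Gclm, the modifier subunit of the rate-limiting glutamate-cysteine ligase, had 20.4, 18.4 and 18.9 CPM in the HFHS libraries, against 19.1 and 24.9 CPM in the chow libraries. Gsr, the reductase that regenerates glutathione from its oxidised form, had 22.5, 19.3 and 17.0 CPM in the HFHS libraries, against 18.0 and 20.4 CPM in the chow libraries. Both overlapped between groups, with adjusted p of 0.237 for Gclm and 0.873 for Gsr, although Gclm passed as lower without chow replicate 1 (log2 -0.37, adjusted p = 0.0359). Gclc, the catalytic subunit of the ligase, averaged 14.2 ± 0.772 CPM in HFHS libraries (SD, n = 3) and 12.3 ± 0.107 CPM in chow libraries (SD, n = 2), with no overlap but an adjusted p of 0.178, and it passed as higher with transcript length and GC offsets (adjusted p = 0.0475). Gss, the synthetase of the second step, averaged 13.6 ± 0.371 CPM in HFHS libraries (SD, n = 3) and 12.3 ± 1.27 CPM in chow libraries (SD, n = 2), with an adjusted p of 0.393. Its exons share 395 bases with Acss2 on the opposite strand, which had 447 to 515 counts beside 185 to 238 for Gss. Whether counting used the strand is not stated in the sources used here. The summed level of the 4 genes was 66.6 ± 4.69 CPM in HFHS libraries and 65.8 ± 7.21 CPM in chow libraries.

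Glutathione transferases join glutathione to electrophiles such as lipid peroxidation products. In the set 8 of the 11 fell while none rose, where 18.7% of all tested genes fell and 19.4% rose. Their median exon length was 1473 bases, and their median log2 fold change was -0.416. In the length bins of all tested genes with medians of 986 and 1788 bases it was -0.471 and -0.323. With exon length and GC offsets the median of the class was -0.0126. The summed level of the class was 675 ± 14.6 CPM in HFHS libraries (SD, n = 3) and 852 ± 10.0 CPM in chow libraries (SD, n = 2). The largest fold was that of Mgst1, a membrane-bound transferase of the endoplasmic reticulum and mitochondria (chr6:138140316-138156755, GRCm38). It had 22.9, 25.3 and 28.0 CPM in the HFHS libraries, against 40.9 and 69.3 CPM in the chow libraries. The chow libraries stood far apart from each other, yet both were above every HFHS library, for a 2.17-fold lower level in HFHS (log2 -1.12 ± 0.17, SE, adjusted p = 0.000121). Leaving out chow replicate 2 gave -0.69 and leaving out chow replicate 1 gave -1.45, and the call held in both cases.

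Gstm5, a mu-class transferase, had 25.1, 26.3 and 25.2 CPM in the HFHS libraries, against 40.8 and 42.9 CPM in the chow libraries. The replicates were close and the groups far apart, a 1.64-fold lower level in HFHS (log2 -0.71 ± 0.09, SE, adjusted p = 2.48e-05). Gstk1, a kappa-class transferase of mitochondria and peroxisomes, had 50.1, 52.7 and 45.2 CPM in the HFHS libraries, against 69.2 and 74.3 CPM in the chow libraries. Gstt1, of the theta class, had 9.31, 9.98 and 10.3 CPM in the HFHS libraries, against 16.6 and 14.2 CPM in the chow libraries. Neither overlapped between groups, and the levels in HFHS were 1.45-fold lower for Gstk1 (adjusted p = 0.000212) and 1.56-fold lower for Gstt1 (adjusted p = 0.00112). With exon length and GC offsets both calls were lost (adjusted p = 0.0931 for Gstk1 and 0.0633 for Gstt1), while both held with the transcript length offsets.

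Per kilobase of exon, the highest mean levels of the class were those of Mgst3 (129 CPM in HFHS libraries, 172 CPM in chow libraries) and Gstm1 (89.1 CPM in HFHS libraries, 97.1 CPM in chow libraries). Mgst3, a microsomal transferase, had 134, 137 and 154 CPM in the HFHS libraries, against 208 and 169.6 CPM in the chow libraries, a 1.33-fold lower level without overlap (adjusted p = 0.00277). Its log2 fold change was -0.42, but -0.01 with exon length and GC offsets (adjusted p = 0.929). Gstm1 had 126, 132 and 136 CPM in the HFHS libraries, against 138 and 148 CPM in the chow libraries, and did not pass (log2 -0.12, adjusted p = 0.202). With exon length and GC offsets its sign turned and it passed as higher (0.21, adjusted p = 0.0323), and it passed as lower when libraries were scaled by total counts only (-0.22, adjusted p = 0.0313).

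Of the other transferases, Gsta3 fell 1.61-fold (adjusted p = 0.00139) and did so with both kinds of offset. Gstp1 was 1.29-fold lower in HFHS (adjusted p = 0.00249) and Gstm2 1.23-fold lower (adjusted p = 0.0159), but neither passed with either offset. For Gstm2 the adjusted p was also 0.052 without HFHS replicate 1, 0.0745 without HFHS replicate 2 and 0.213 without chow replicate 2. Gsta4 and Gsto1 did not pass, with adjusted p of 0.096 and 0.996, although Gsto1 passed as higher with exon length and GC offsets (adjusted p = 0.0169) and Gsta4 as lower with upper-quartile factors (adjusted p = 0.0474) and total counts (0.0145). The near-identical neighbour Gstp2, 98.16% identical to Gstp1 over 707 bases, had up to 77 counts, at most 8.69% of the Gstp1 count, so Gstp1 reads may be shared with it. Over the whole class, 3 genes fell and 2 rose with exon length and GC offsets, and 6 fell and none rose with transcript length and GC offsets.

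**Figure D3:**
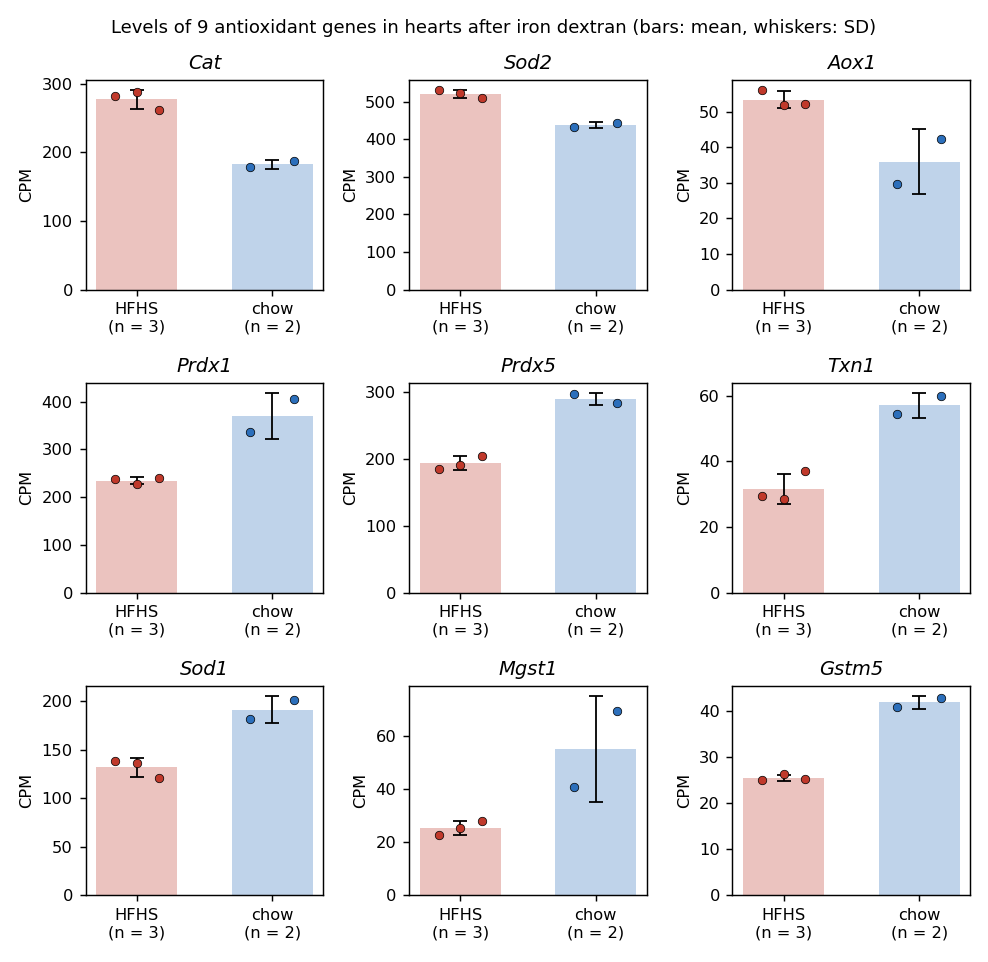
CPM of 9 of the genes in each library (points), with the mean (bar) and SD (whisker) of the 3 HFHS and 2 chow libraries; every axis starts at 0. In Cat, Sod2 and Aox1 the HFHS points lie above both chow points, and in Prdx1, Prdx5, Txn1, Sod1, Mgst1 and Gstm5 they lie below both.

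The pentose phosphate pathway supplies NADPH, and 3 of its 4 genes in the set fell. Taldo1, the transaldolase of its non-oxidative arm, had 50.5, 52.2 and 53.0 CPM in the HFHS libraries, against 67.0 and 68.2 CPM in the chow libraries. Tkt, the transketolase of the same arm, had 17.2, 19.2 and 19.1 CPM in the HFHS libraries, against 23.5 and 24.7 CPM in the chow libraries. Neither overlapped between groups, and both were 1.30-fold lower in HFHS (adjusted p = 0.00124 for Taldo1 and 0.00902 for Tkt). Tkt has 6533 exon bases in the deposited tables, and its log2 fold change was larger with exon length and GC offsets (-0.55 against -0.38, adjusted p = 0.000727). Taldo1 lost its call there (adjusted p = 0.0961). The median transcript of Tkt has 1619 bases, and its log2 fold change was smaller with transcript length and GC offsets (-0.32, adjusted p = 0.0201). Without chow replicate 2 the adjusted p of Tkt was 0.0511.

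G6pdx, the glucose-6-phosphate dehydrogenase that opens the pathway, had 8.06, 5.38 and 5.88 CPM in the HFHS libraries, against 8.99 and 9.28 CPM in the chow libraries. It was 1.41-fold lower without overlap (adjusted p = 0.0406), from 75 to 167 counts per library. The call was lost without HFHS replicate 2 (adjusted p = 0.153), without HFHS replicate 3 (0.118), without chow replicate 1 (0.0855) or 2 (0.108), and with either offset (0.0914 and 0.0975). Its exons share 418 bases with Ikbkg on the opposite strand, which had 566 to 676 counts, and the sources used here do not say whether counting used the strand. Pgd, the dehydrogenase of the next NADPH-yielding step, had 23.1, 25.9 and 25.1 CPM in the HFHS libraries, against 23.2 and 24.2 CPM in the chow libraries, which overlapped (adjusted p = 0.683).

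Peroxiredoxins reduce hydrogen peroxide and organic peroxides through a reactive cysteine, and 4 of the 6 fell: Prdx1, Prdx2, Prdx4 and Prdx5. These 4 fell with either offset as well. Summed over the class, the level was 1034 ± 30.0 CPM in HFHS libraries (SD, n = 3) and 1368 ± 68.9 CPM in chow libraries (SD, n = 2). Prdx1, a cytosolic peroxiredoxin and NRF2 target (chr4:116685544-116700822), had 238, 227 and 239 CPM in the HFHS libraries, against 336 and 405 CPM in the chow libraries. The groups were well apart, a 1.58-fold lower level in HFHS (log2 -0.66 ± 0.08, SE, adjusted p = 2.63e-05).

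Prdx5, found in mitochondria, peroxisomes and cytosol, had 185, 191 and 205 CPM in the HFHS libraries, against 296 and 284 CPM in the chow libraries. Prdx2, a cytosolic form that is also abundant in red cells, had 183, 193 and 202 CPM in the HFHS libraries, against 258 and 269.6 CPM in the chow libraries. Prdx4, the secretory pathway form, was the scarcest, with 9.56, 9.26 and 11.0 CPM in the HFHS libraries, against 18.8 and 16.6 CPM in the chow libraries. All 3 were lower in every HFHS library than in either chow library, by 1.50-fold for Prdx5 (adjusted p = 2.58e-05), 1.37-fold for Prdx2 (adjusted p = 0.000201) and 1.78-fold for Prdx4 (adjusted p = 0.000138). Prdx5 shares 409 exon bases with Trmt112 on the opposite strand, which had 122 to 263 counts beside at least 2657 for Prdx5. Prdx2 shares 177 exon bases with Rnaseh2a (133 to 231 counts) and 173 with Junb (114 to 277 counts), both on the opposite strand. Prdx2 itself had at least 2683 counts.

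Prdx3 and Prdx6 did not pass. Prdx3, the mitochondrial matrix form, had 235, 243 and 244 CPM in the HFHS libraries, against 264 and 264 CPM in the chow libraries. The groups did not overlap, but the difference was small (log2 -0.14 ± 0.07, SE, adjusted p = 0.128). Its direction was not settled by the scaling: it passed as lower with total counts only (-0.23, adjusted p = 0.0149) and as higher with exon length and GC offsets (0.25, adjusted p = 0.0109). Prdx6, which reduces phospholipid peroxides with glutathione, averaged 163 ± 8.42 CPM in HFHS libraries (SD, n = 3) and 162 ± 22.9 CPM in chow libraries (SD, n = 2), with an adjusted p of 0.978.

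Txn1, the cytosolic thioredoxin that passes electrons to peroxiredoxins (chr4:57943373-57956411), fell. It had 29.3, 28.4 and 37.0 CPM in the HFHS libraries, against 54.4 and 59.8 CPM in the chow libraries. Every HFHS library was well under both chow libraries, a 1.81-fold lower level (log2 -0.86 ± 0.11, SE, adjusted p = 3.26e-05), and it still passed with exon length and GC offsets, at -0.43. Txn2, the mitochondrial thioredoxin, had 124, 126 and 133 CPM in the HFHS libraries, against 141 and 149 CPM in the chow libraries. It missed the threshold (log2 -0.19, adjusted p = 0.0543) and passed as lower in several other settings, among them exon length and GC offsets (adjusted p = 0.0331) and leaving out HFHS replicate 3 (adjusted p = 0.044). Srxn1, the sulfiredoxin that repairs over-oxidised peroxiredoxins, averaged 17.8 ± 1.34 CPM in HFHS libraries (SD, n = 3) and 21.5 ± 5.66 CPM in chow libraries (SD, n = 2). Its groups overlapped (adjusted p = 0.150), and it passed as lower without chow replicate 1 (log2 -0.52, adjusted p = 0.006).

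The 3 superoxide dismutases moved in different directions, and their summed level was 671 ± 18.2 CPM in HFHS libraries (SD, n = 3) and 653 ± 25.9 CPM in chow libraries (SD, n = 2). Sod1, the Cu/Zn enzyme of the cytosol (chr16:90220742-90226322), had 139, 136 and 121 CPM in the HFHS libraries, against 181 and 201 CPM in the chow libraries. The groups did not overlap and the level was 1.45-fold lower in HFHS (log2 -0.54 ± 0.08, SE, adjusted p = 0.000149). Sod1 was the shortest gene of the set in the deposited tables, at 646 exon bases, while its median transcript in GENCODE M21 has 2305.5 bases. Its call was lost with exon length and GC offsets (log2 -0.12, adjusted p = 0.32) but not with transcript length and GC offsets (log2 -0.62, adjusted p = 3.19e-05). That transcript length is longer than all the exon bases counted for Sod1, so the second offset treated it as a longer gene than was counted.

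Sod2, the manganese enzyme of the mitochondrial matrix (chr17:13007839-13018119), had 530.4, 523 and 509 CPM in the HFHS libraries, against 432 and 444 CPM in the chow libraries. Every HFHS library was above both chow libraries, but the size was modest, 1.19-fold (log2 0.25 ± 0.07, SE, adjusted p = 0.00886). It rose with either offset and lost its call only when libraries were scaled by total counts (0.15, adjusted p = 0.0768). Short stretches of 112 to 193 bases in the Sod2 transcripts match 18 other genes, so some reads may be shared. Sod3, the secreted extracellular enzyme, had 17.4, 16.7 and 21.5 CPM in the HFHS libraries, against 21.5 and 25.7 CPM in the chow libraries, so the highest HFHS and the lowest chow library almost met. It was 1.28-fold lower (adjusted p = 0.0406), a call lost without HFHS replicate 1 (adjusted p = 0.137), without HFHS replicate 2 (0.155), without chow replicate 2 (0.287) and with exon length and GC offsets (0.0577).

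Catalase, the peroxisomal enzyme that splits hydrogen peroxide into water and oxygen, rose. Cat (chr2:103453849-103485160) had 282, 288 and 261 CPM in the HFHS libraries, against 178 and 187 CPM in the chow libraries. The groups were far apart relative to their spread, a 1.52-fold higher level in HFHS (log2 0.60 ± 0.07, SE, adjusted p = 2.52e-05), and a log2 fold change of 0.75 once exon length and GC offsets were used (adjusted p = 5.03e-06). No left-out library took its log2 fold change outside 0.57 to 0.65. Catalase protein, like Prdx2, is also abundant in red cells, whose 9 markers all fell in the same libraries. The part of red cells in the values of Cat, which rose, and of Prdx2, which fell, was not tested.

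**Figure D4:**
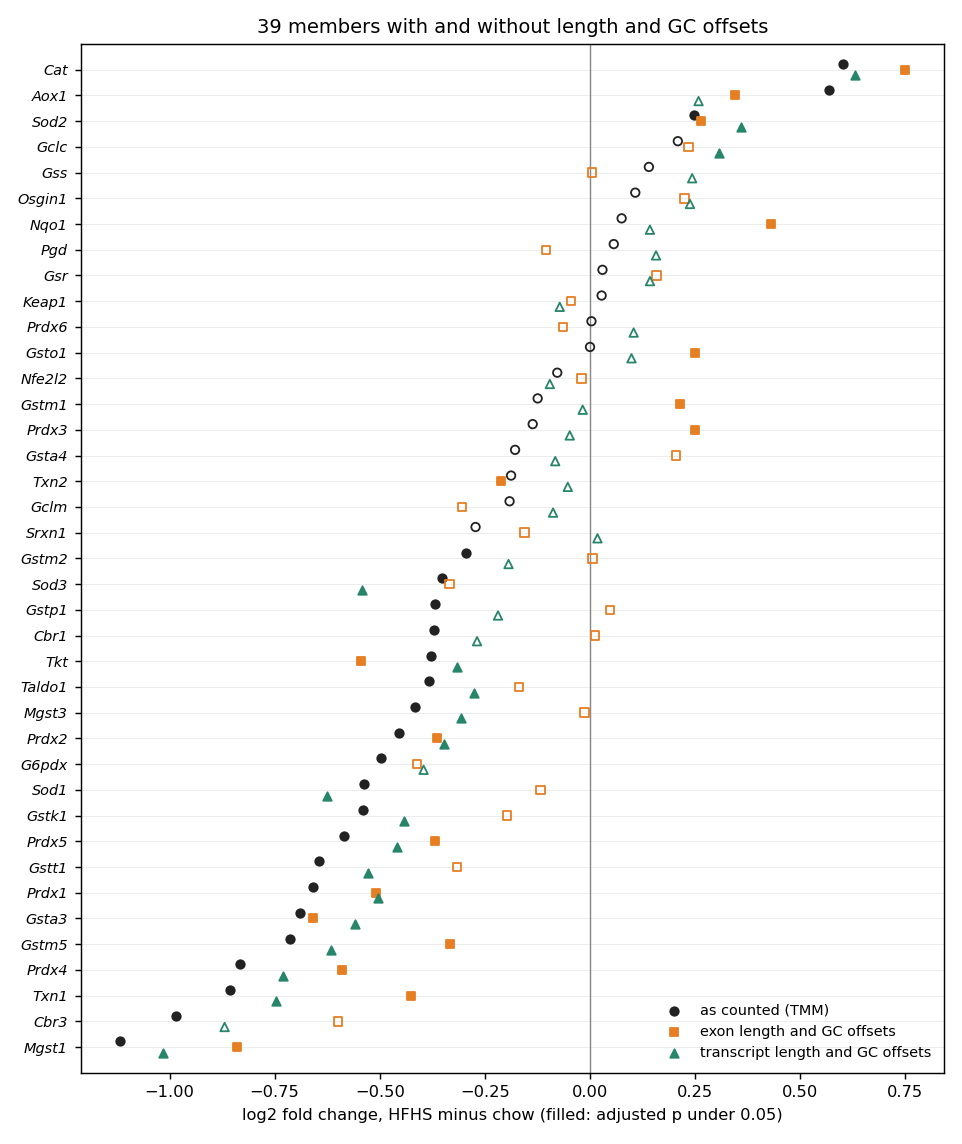
Log2 fold change (HFHS minus chow, x axis) of the 39 genes as counted with TMM factors (circles), with exon length and GC offsets (squares) and with transcript length and GC offsets (triangles); filled symbols passed the adjusted p of 0.05. Cat and Sod2 stay filled on the right in all 3 fits, and 9 genes including Mgst1, Txn1 and Prdx1 stay filled on the left, while Mgst3, Gstp1 and Cbr1 move to near 0 with exon length offsets.

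Of the 10 genes with the antioxidant response element core in their window, 6 fell (Gsta3, Gstm5, Mgst1, G6pdx, Prdx1 and Sod1), none rose and 4 did not pass (Nfe2l2, Gclm, Pgd and Srxn1). Of the 24 genes with a window and no core, 13 fell and 3 rose. Among all 39 genes 20 fell and 3 rose, where 18.7% of all tested genes fell and 19.4% rose. Cat, Sod2 and Aox1 were among those without the core, and so was Nqo1, a classic NRF2 target. Whether the core went with the direction of change was not tested.

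Of 81 further genes of NRF2 control, NADPH supply, glutathione handling and oxidant defence, 74 could be tested, and 17 rose, 16 fell and 41 did not pass. These are 23% and 21.6% of the 74, close to the 19.4% and 18.7% of all tested genes. With exon length and GC offsets 17 rose and 9 fell, which are 23% and 12.2%, beside 15.9% and 14.9% of all tested genes. The lists that follow are small, and their counts stand beside the same shares of all tested genes. Among 11 NRF2 partners and turnover genes 6 rose and 2 fell. With exon length and GC offsets 4 rose and none fell, and with DESeq2 4 rose and 1 fell. Their median exon length was 5441 bases, and 30.4% of all genes at or above the 4009-base median rose. The NRF2 relative Nfe2l1 had 625, 668 and 616 CPM in the HFHS libraries, against 366 and 358 CPM in the chow libraries, a 1.76-fold higher level without overlap (adjusted p = 1.09e-06). Gsk3b, a kinase that marks NRF2 for destruction, was 1.50-fold higher (adjusted p = 9.60e-05). Rbx1, a subunit of the ligase that KEAP1 serves, was 1.41-fold lower (adjusted p = 0.000301), a call lost with exon length and GC offsets (adjusted p = 0.181). Cul3, another subunit of that ligase, was 1.29-fold higher without overlap (adjusted p = 0.000808) and stayed higher with either offset (0.00186 and 3.74e-05).

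Among 12 tested of 14 other NRF2 targets 2 rose and 3 fell. Me1, the cytosolic malic enzyme that makes NADPH, was 1.39-fold higher (adjusted p = 0.000165), and Abcc1, an exporter of glutathione conjugates, was 1.49-fold higher (adjusted p = 0.000251), a call that Abcc1 lost with exon length and GC offsets (adjusted p = 0.0685). Ugdh, which makes UDP-glucuronate, was 1.40-fold lower (adjusted p = 0.00581). Hmox1, the haem oxygenase that releases iron from haem, had 5.62, 4.45 and 6.62 CPM in the HFHS libraries, against 7.90 and 7.39 CPM in the chow libraries. These did not overlap, but the gene did not pass (adjusted p = 0.0657), and it passed as lower without HFHS replicate 3 (adjusted p = 0.0348), with upper-quartile factors (0.0456) and with total counts only (0.0316).

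Among 8 thioredoxin reductases, glutaredoxins and TXNIP 2 rose and 2 fell. Txnrd1, the cytosolic reductase that recharges Txn1, had 50.1, 52.9 and 51.1 CPM in the HFHS libraries, against 37.6 and 45.3 CPM in the chow libraries, a 1.24-fold higher level (adjusted p = 0.0174). That call was lost without HFHS replicate 2 (adjusted p = 0.0718), without chow replicate 1 (0.194), with total counts only (0.0851) and with transcript length and GC offsets (0.151). The mitochondrial Txnrd2 did not pass (adjusted p = 0.728), and Txnrd3 was 1.32-fold higher (adjusted p = 0.0081). Glrx3 and Glrx5, glutaredoxins of iron-sulfur cluster handling, were 1.46-fold lower (adjusted p = 6.03e-05) and 1.39-fold lower (adjusted p = 0.000326), and Glrx5 lost its call with exon length and GC offsets (adjusted p = 0.572). Txnip, which binds and inhibits thioredoxin, varied widely within both groups, with 642, 402 and 324 CPM in the HFHS libraries and 350.1 and 522 CPM in the chow libraries (adjusted p = 0.839).

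Among 11 other NADPH sources 2 rose and 3 fell. Nnt, the mitochondrial transhydrogenase that makes NADPH, had 461, 476 and 428 CPM in the HFHS libraries, against 315 and 288 CPM in the chow libraries, a 1.51-fold higher level without overlap (adjusted p = 3.41e-05). Nadk2, the mitochondrial NAD kinase, was 1.31-fold higher (adjusted p = 0.00378), and Pgls, the lactonase of the pentose phosphate pathway, was 1.44-fold lower (adjusted p = 0.00499). Idh2, the mitochondrial NADP-dependent isocitrate dehydrogenase, had 1528, 1607 and 1598 CPM in the HFHS libraries, against 1491 and 1294 CPM in the chow libraries. It did not pass (adjusted p = 0.0665), but it passed as higher without chow replicate 1 (adjusted p = 0.00577), without the filter on low counts (0.0417), with DESeq2 (0.047), with limma-voom (0.0449) and with either offset (0.00278 and 0.00506).

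Glutathione breakdown and transport had 2 genes that rose and 2 that fell among 10 tested. Oplah, the oxoprolinase of the glutathione cycle, was 1.46-fold higher (adjusted p = 0.000794), and the mitochondrial carrier Slc25a40 was 1.40-fold higher (adjusted p = 0.0101), a call lost without chow replicate 2 (adjusted p = 0.0608) and with exon length and GC offsets (0.116). Ggct, a cyclotransferase of glutathione breakdown, was 1.34-fold lower (adjusted p = 0.0119), with an adjusted p of 0.0504 without HFHS replicate 1, 0.0939 without chow replicate 1 and 0.0717 with transcript length and GC offsets. Slc7a11, the cystine carrier and an NRF2 target, had too few counts to be tested. Of 12 other transferases tested only Gstm6 passed, as lower (adjusted p = 0.0459), and it lost that call when any 1 of the 3 HFHS libraries was left out (adjusted p = 0.122, 0.0748 and 0.0739 without replicates 1, 2 and 3) and without chow replicate 1 (0.305). It was also lost with either offset (0.152 and 0.0729), DESeq2 (0.169) and limma-voom (0.0517).

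Among 10 genes of other oxidant defence 3 rose and 3 fell. Msrb3, a methionine sulfoxide reductase, was 1.54-fold higher (adjusted p = 1.27e-05), and Sesn3, a sestrin, was 1.67-fold higher (adjusted p = 8.76e-05). Msrb1, a selenoprotein of the same reductase family, was 1.40-fold lower (adjusted p = 0.00106), a call lost with exon length and GC offsets (adjusted p = 0.345). Ccs, the copper chaperone that loads Sod1, had 9.68, 12.0 and 13.1 CPM in the HFHS libraries, against 14.0 and 15.1 CPM in the chow libraries. It did not overlap between groups and did not pass (adjusted p = 0.0717), but it passed as lower without HFHS replicate 3 (adjusted p = 0.0379), with upper-quartile factors (0.0429) and with total counts only (0.0274).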

How the data were processed

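Poly-A enriched RNA of mouse heart was analysed, in 3 HFHS and 2 chow libraries grouped by their titles. The authors deposited 1 table of raw read counts per gene for each library. The submitters' processing notes name Trimmomatic 0.36, STAR 2.5.2b, featureCounts (Subread 1.5.2) and the build GRCm38, without saying how each was set. Exon coordinates and exon length stand beside each count, per the file headers. Whether counting used the strand, how reads with several matches were treated and which annotation release was used is not stated in the sources used here, so reads of near-identical or overlapping genes may be shared or lost.

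Of the 49315 gene IDs 49056 were found in GENCODE M21. The main test was edgeR 4.0.16 (R 4.3.3) with filterByExpr at a minimum count of 10, TMM factors, glmQLFit and glmQLFTest on diet, Benjamini-Hochberg adjustment over all genes tested and a threshold of 0.05. The scripts were tested on simulated data. Standard errors are approximate, being the coefficient divided by the root of its F value. Summed marker levels use total counts. No pair of libraries differed by as little as sampling noise (chi-square per degree of freedom of at least 2.64). Values per library are given for both regulators, catalase and, per class, up to 4 genes past the threshold with the smallest p and the 2 with the highest mean CPM. From each further list at most 3 genes past the threshold are named, and Txnrd1, Txnrd2, Hmox1, Me1, Nnt, Idh2, Txnip and Ccs whatever their values. Cul3 is named in addition, as a subunit of the same ligase as Rbx1.

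The fit was repeated with other scaling factors, with DESeq2 1.42.0 and limma-voom (limma 3.58.1), with other filters, without mitochondrially encoded genes, without each library, with a replicate block, and at thresholds of 0.01 and 0.1. It was also repeated with offsets per library from smooth trends (mgcv 1.9.3) on exon length and GC content; those on median transcript length were added after the data were seen. The genes and all lists were chosen with earlier results of these data known, so no list is independent evidence of its direction.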

Additional observations from a re-analysis of the deposited data

How the results depend on the processing

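Groups of 3 and 2 libraries limit what could be seen: 16 of the 39 genes did not pass, which does not show that they were alike, and scarce genes such as Cbr3 (15 to 68 counts) and G6pdx (75 to 167 counts) have wide errors. The signs of small differences depended on the scaling. With total counts only, 2053 of all genes rose and 3429 fell, in place of 2756 and 2661.

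Among all genes, 1729 fell at an adjusted p of 0.01. The 39 genes had 7 that rose with exon length offsets and 7 with exon length and GC offsets, in place of 3, and 9 and 10 that fell, in place of 20. Among the further pathway genes, 8 fell with exon length offsets, 9 with exon length and GC offsets and 10 at an adjusted p of 0.01, in place of 16. The median log2 fold change of the 39 genes was -0.389 with total counts only, -0.084 with exon length offsets, -0.105 with exon length and GC offsets and -0.193 with transcript length and GC offsets, and leaving out each library gave -0.37 to -0.155. All of these kept the sign of the median, and their causes were not tested. Leaving out each library gave 3 genes that rose every time and 16 to 19 that fell. With DESeq2 16 fell and with limma-voom 21, and 3 rose with each.

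The labels number the replicates alike in both groups but do not say that a number marks a shared litter, day or batch. Deviations from the group means correlated at 0.0348 between the replicates numbered 1 and at 0.0258 between those numbered 2. The crossed pairs gave -0.0348 (HFHS 1 with chow 2) and -0.0258 (HFHS 2 with chow 1). With 2 chow libraries their deviations are exact opposites, so these values cannot decide whether a number marks a shared origin. With the replicate number as a block, 20 of the 39 genes fell and 3 rose, and 2753 of all genes rose and 2579 fell. Only the HFHS group has a replicate 3, so under the block the diet estimate rests on replicates 1 and 2. The block is therefore close to leaving out HFHS replicate 3 and is not a separate check. For Ccs, for example, the log2 fold change was -0.433 under the block and -0.427 without HFHS replicate 3. G6pdx lost its call under the block (adjusted p = 0.0649) and Txn2 gained one (0.0406). Of the further genes named, Gstm6 lost its call (0.0672), and Hmox1 (0.0192) and Ccs (0.0196) gained one.

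Over the single genes, 552 values kept their direction and side of the threshold, 43 lost and 18 gained the threshold with the same sign, and 50 changed sign. Of genes past the threshold, 3 changed sign, all with exon length offsets or exon length and GC offsets and none of them then past it: Cbr1 (0.023 and 0.0121), Gstm2 (0.0195 and 0.00659) and Gstp1 (0.0566 and 0.0486). The other changes of sign were in genes that had not passed. With exon length offsets the log2 fold change was 0.21 for Gsta4, 0.228 for Gstm1, 0.216 for Prdx3, -0.0145 for Keap1, -0.084 for Pgd and -0.0463 for Prdx6. With exon length and GC offsets it was 0.204 for Gsta4, 0.215 for Gstm1, 0.25 for Prdx3, -0.0444 for Keap1, -0.105 for Pgd and -0.0637 for Prdx6. With transcript length and GC offsets it was -0.0716 for Keap1 and 0.0182 for Srxn1. With total counts only it was -0.0664 for Keap1, -0.0184 for Nqo1, -0.0652 for Gsr, -0.094 for Gsto1, -0.0375 for Pgd and -0.0906 for Prdx6. With upper-quartile factors it was -0.0115 for Keap1, -0.00891 for Gsr, -0.0391 for Gsto1 and -0.0359 for Prdx6. Without the filter it was -0.008 for Gsto1 and -0.00375 for Prdx6, and with 10 counts in every library -0.00576 for Gsto1 and -0.00222 for Prdx6. Under the block it was -0.258 for Osgin1 and -0.0115 for Gsto1.

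Leaving out each library in turn gave log2 fold changes on both sides of 0 for 9 genes that had not passed. The ranges were -0.201 to 0.0568 for Nfe2l2, -0.036 to 0.0954 for Keap1, -0.0368 to 0.197 for Nqo1, -0.277 to 0.459 for Osgin1, -0.37 to 0.013 for Gclm, -0.0811 to 0.127 for Gsr, -0.0732 to 0.0784 for Gsto1, -0.133 to 0.155 for Prdx6 and -0.519 to 0.0237 for Srxn1.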
